A study of Mus musculus with 12 samples.

Results

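The solute carriers expressed in the organoid epithelium were 78 genes of the 371 whose mouse symbol is Slc followed by a number, with antisense genes and pseudogenes left out. They were chosen by their level, which had to reach 20 CPM (counts-per-million, here the unique molecular identifiers, UMIs, of a gene relative to those of all genes in the same sum) in the summed cells of the control group or of the group given rIFNγ and rIL-10. Of the 32285 genes counted, 6090 reached this level in 1 of these groups. Slc12a2, Slc51b, Slc2a1, Slc16a3, Slc7a11, Slc3a2, Slc7a5, Slc7a1 and Slc1a5 were left out by the same rule. The level was reached in both groups by 57 members, in the control alone by 9 and in the cytokine group alone by 12. One member is no carrier by name: Slc9a3r1 encodes NHERF1, a scaffold protein that binds the sodium/proton exchanger of the brush border. Just inside the limit were Slc4a2 (18.1 CPM in control and 20.02 CPM after cytokines), Slc26a6 (10.2 and 20.2 CPM) and Slc26a2 (12.1 and 20.3 CPM). Just outside were Slc25a26 (16.3 and 19.8 CPM), Slc6a19 (19.7 and 10.6 CPM) and Slc38a10 (15.2 and 19.3 CPM). At a limit of 15 CPM there would have been 97 members, and at 30 CPM 43.

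The cells came from wild-type BALB/c small intestinal organoids that had been passaged and then kept for 4 days in medium with EGF, noggin and R-spondin. The 6 groups were organoids alone (control), organoids above 100000 allogeneic CD25high FoxP3-GFP+ Treg cells per well, the same co-culture with 10 µg/ml of antibody against IFNγ, against IL-10R or against both, and organoids without T cells that received both recombinant cytokines, rIFNγ at 0.25 ng/ml and rIL-10 at 10 ng/ml. Co-culture wells also received IL-2 (30 U/ml) and CD3/CD28 beads (2 µl), and the plates were tilted so that T cells and organoids did not touch. Neither IL-2 nor beads is described for the other groups of this experiment. In another co-culture experiment of the paper, control organoids without T cells did receive IL-2. A co-culture without antibody thus differs from the control in T cells and, where the control had neither, in IL-2 and beads together. Live EpCAM+ cells were sorted, given 1 hashtag antibody per group and pooled, so that each library holds all 6 groups of 1 of 3 replicates. The labels do not say whether the replicates came from different mice. The tests set aside level differences that all groups of a replicate share. Their p-values measure the spread left after that, pooled over the 6 groups, and not the SDs printed with the levels. This spread may be partly technical.

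The 5 libraries held 5387 to 7995 barcodes and 128917456 to 223155304 UMIs each, and pairs of libraries shared 9 to 24 barcodes. After filters 1774 to 2120 cells per group remained, with a median of 43651 to 44690 UMIs per cell in the groups. They were assigned to 5 classes built from control cells without any gene whose symbol starts with Slc. These were ISC-like (2438 cells), TA-like (4962 cells, led by genes of the cell cycle) and early enterocyte-like (1141 cells, with Sis among the 10 leading genes). Enterocyte-like cells (1230, led by Fabp1, Apoa1 and Apoa4) and secretory cells (872) completed the list. Cyp2c66, Areg and Fmo5 led the early enterocyte-like cluster, where 6 of 9 progenitor and 4 of 12 enterocyte markers were raised. In the enterocyte-like cluster 8 and 10 of them were raised. The progenitor markers together stood at 7170 CPM in early enterocyte-like and 28860 CPM in enterocyte-like control cells, so they were not highest in the early class. ISC-like cells joined a cluster led by Olfm4 and Lgr5 and another led by Cenpf and Nusap1, with Olfm4 among its 10 leading genes. Among TA-like clusters, the one led by histone genes also had 7 of 9 ISC markers raised. The secretory class held goblet, Paneth and endocrine markers, but 50% of its control cells were neither endocrine-like nor goblet/Paneth-like. Their subclusters had Pou2f3 and Avil or cell cycle genes among the leading genes. The other 1268 cells stayed unnamed. Summed per class, group and replicate, the 5 classes held between 579292 and 23170635 UMIs, and this number limits the precision of each value. In the whole sample, 9 T cell markers together stood at 1.32 to 2.34 CPM in each group and replicate, except with anti-IL-10R, where they were at 1.39, 5.44 and 13.2 CPM. Of these markers, Cd3e, Cd3d and Ptprc were at 0 in control, which held no T cells. Cd3e and Ptprc were at 0 with Treg cells and no antibody, and none of the 9 was at 0 with anti-IL-10R. A list of 5 genes of fetal or stressed epithelium stood at 3.33, 0.653 and 2.43 CPM in control and at 94.7, 5.94 and 31.6 CPM after cytokines, and its part in the results was not tested. Between control and cytokines the share of ISC-like cells went from 22.6% ± 4.58 to 10.1% ± 2.02, that of enterocyte-like cells from 9.76% ± 3.19 to 14.7% ± 6.31 and that of secretory cells from 5.48% ± 1.56 to 14.5% ± 1.84 (SD, n = 3 replicates), which is why the tests were made within classes.

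Solute carriers are membrane proteins that move nutrients, ions, metals and metabolites down a gradient or against it, coupled to another solute. In the small intestine, carriers of the brush border take up sugars, amino acids and minerals from the lumen, carriers of the basolateral membrane pass them on to the blood, and carriers inside the cell supply mitochondria, the Golgi apparatus and secretory vesicles. Enterocytes gain most brush border carriers as they leave the crypt, while dividing crypt cells depend on carriers that import building blocks. The signals of IFNγ and IL-10 are carried to the nucleus by STAT proteins, which bind DNA at sites known as GAS.

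Promoters, from 250 bases before to 50 bases after the annotated start, were taken from RefSeq (GRCm38.p6) for 61 of the 78 members, which had 84 promoters. The letters TTCNNNGAA, the common form of a GAS site and the same on both strands, occurred in 3 of the 84 (3.57%) and in 2726 of 32851 promoters of all genes (8.30%). An ISRE, the site of interferon regulatory factors, written as GAAA followed after any 2 bases by GAAA again, occurred in 2 member promoters (2.38%, Slc25a15 and Slc37a1) against 3.44% of all, and the HNF4 letters CAAAGTCCA in none against 0.475%, with both strands searched. Of the 61 members with a promoter, 32 were called after cytokines below, among them the 3 with a GAS match. Only members at 20 CPM in both groups entered this count of calls, and the 61 include others. Of all genes at 20 CPM or more in both groups, 55.7% were called. The other promoters of Slc12a8 had no match. The 3 promoters with a match are shown with it in capitals. Beside them is the promoter of Slc5a1, the carrier with the most calls among those for nutrients, which had no match. A match is a description of these letters in this window and says nothing of binding. The matches began 245, 212 and 66 bases before the start of Slc12a8, Slc25a36 and Slc35b1, written as positions -245, -212 and -66. Slc12a8 is shown at chr16:33517078-33517377 on the plus strand, Slc25a36 at chr9:97110992-97111291 on the minus strand, Slc35b1 at chr11:95384606-95384905 on the plus strand and Slc5a1 at chr5:33103969-33104268 on the plus strand.
Slc12a8: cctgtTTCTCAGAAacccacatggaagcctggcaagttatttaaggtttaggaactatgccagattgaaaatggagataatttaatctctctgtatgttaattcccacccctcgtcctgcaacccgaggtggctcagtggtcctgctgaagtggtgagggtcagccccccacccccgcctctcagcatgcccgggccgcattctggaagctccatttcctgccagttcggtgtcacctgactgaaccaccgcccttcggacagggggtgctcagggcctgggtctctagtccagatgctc
Slc25a36: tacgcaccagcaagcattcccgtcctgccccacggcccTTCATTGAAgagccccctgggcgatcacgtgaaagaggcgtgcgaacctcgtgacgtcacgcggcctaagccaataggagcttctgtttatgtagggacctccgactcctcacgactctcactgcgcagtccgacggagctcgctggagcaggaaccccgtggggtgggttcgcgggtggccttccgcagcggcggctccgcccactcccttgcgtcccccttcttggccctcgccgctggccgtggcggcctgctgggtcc
Slc35b1: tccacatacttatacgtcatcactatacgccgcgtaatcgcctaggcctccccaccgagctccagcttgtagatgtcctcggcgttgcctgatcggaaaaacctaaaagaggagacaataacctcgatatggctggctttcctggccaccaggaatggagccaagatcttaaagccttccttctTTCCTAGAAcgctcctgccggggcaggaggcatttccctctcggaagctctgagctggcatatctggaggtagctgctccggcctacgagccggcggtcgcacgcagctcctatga
Slc5a1: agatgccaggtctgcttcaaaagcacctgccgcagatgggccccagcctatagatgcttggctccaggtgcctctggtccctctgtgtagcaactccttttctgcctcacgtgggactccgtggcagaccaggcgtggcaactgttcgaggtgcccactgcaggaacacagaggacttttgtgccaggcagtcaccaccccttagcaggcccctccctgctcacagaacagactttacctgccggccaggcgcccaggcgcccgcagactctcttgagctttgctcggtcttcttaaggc

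In control organoids the members together made up 4568 ± 154 CPM (SD, n = 3). The 18 members of the mitochondrial carrier family Slc25 alone held 52.7% of the members' UMIs. Since each UMI stands for 1 molecule whatever its length, CPM is compared between genes as molecules in a fixed total. Slc25a5 and Slc25a3, which exchange ADP for ATP and import phosphate across the inner mitochondrial membrane, were far above the rest with 888 ± 76.4 and 772 ± 69.6 CPM. Slc25a39 (142 ± 15.99 CPM), a carrier linked to mitochondrial glutathione, and Slc38a2 (134 ± 27.01 CPM), which imports neutral amino acids with sodium, differed by less than their SD, as did Slc25a1 (118 ± 13.2 CPM), the citrate carrier, and Slc6a6 (108 ± 23.9 CPM), the taurine transporter. The median member stood at 30.4 CPM. All 78 are protein-coding genes, and in GRCm38 those described most lie at chr5:33104219-33162870 (Slc5a1, plus strand), chr8:46206797-46211284 (Slc25a4, minus), chr17:45585200-45599606 (Slc29a1, minus), chr14:14702279-14799940 (Slc4a7, plus), chr16:33517328-33664135 (Slc12a8, plus) and chr11:95384692-95391776 (Slc35b1, plus).

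**Figure D1:**
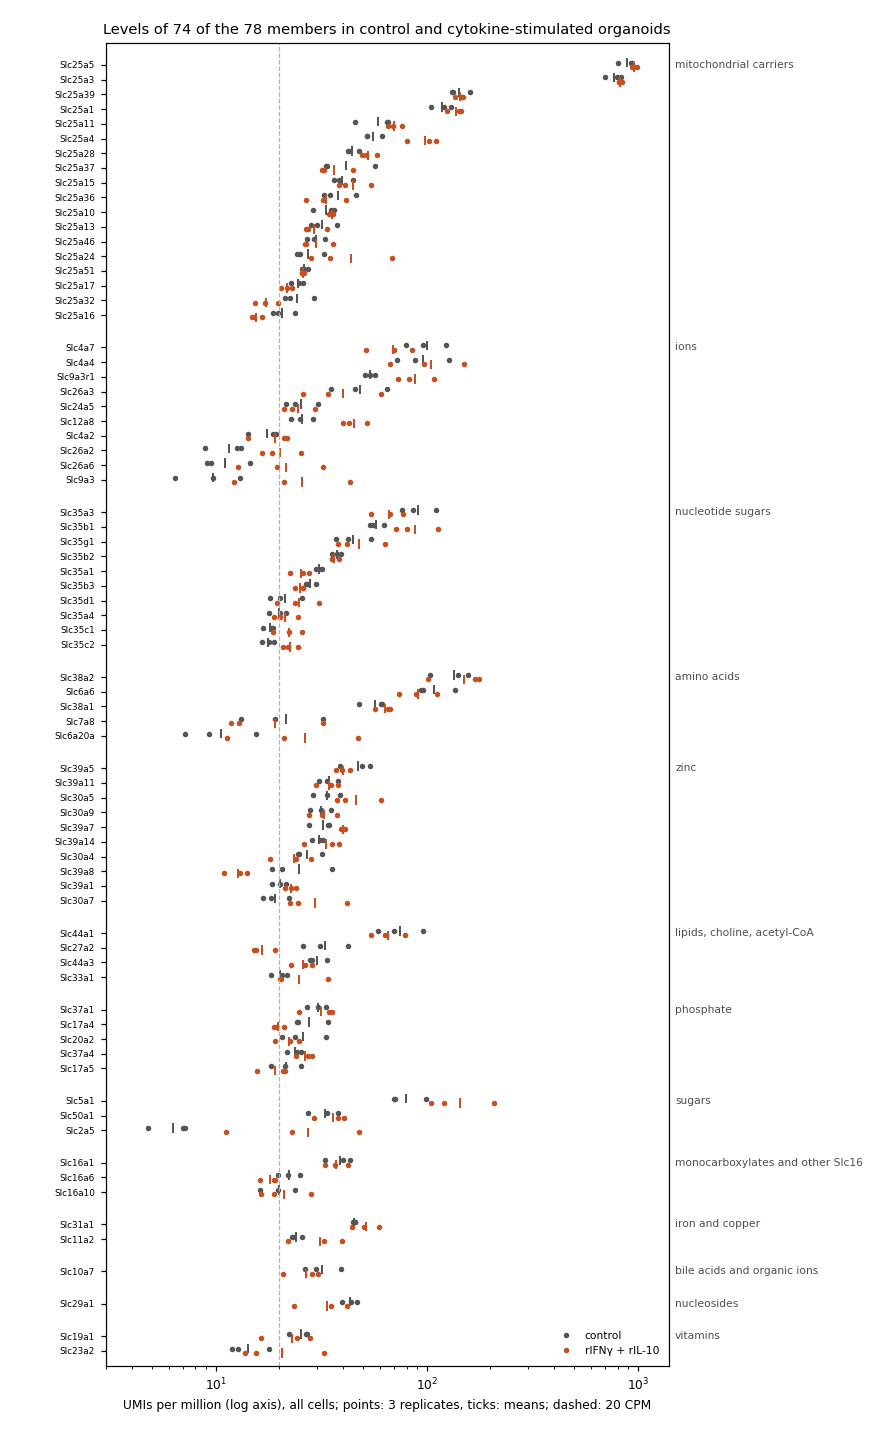
Levels of 74 of the 78 members in control (grey) and cytokine-stimulated organoids (orange), grouped by transport role, in CPM over all cells on a log axis. Points are the 3 replicates, ticks their means and the dashed line the 20 CPM by which members were chosen. Slc25a5 and Slc25a3 lie near 900 and most members between 20 and 60.

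Across the 5 classes of control cells, 36 members had their highest mean level in enterocyte-like cells, 31 in secretory cells, 5 each in ISC-like and TA-like cells and 1 in early enterocyte-like cells. These levels are a description, since the classes are clusters of the same cells. A highest mean can be a near tie with the next class. Among members highest in secretory cells, the ratio to the next class was 1.001 for Slc30a5, 1.012 for Slc4a7 and 1.019 for Slc25a4. Among those highest in enterocyte-like cells it was 1.028 for Slc25a3. The counts were not set against those of all genes and do not show enrichment in a class. The members summed to 4203 ± 141 CPM in ISC-like, 4434 ± 177 in TA-like, 5157 ± 277 in early enterocyte-like, 6213 ± 439 in enterocyte-like and 4391 ± 85.4 in secretory cells, so that the sum in enterocyte-like cells exceeded that of each other class by more than the SD of both.

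Several carriers known from the brush border were highest in enterocyte-like cells. Slc5a1, the sodium-coupled glucose transporter SGLT1, was at 57.3 ± 2.30 CPM in ISC-like, 52.4 ± 7.67 in TA-like, 133 ± 31.01 in early enterocyte-like, 338 ± 91.2 in enterocyte-like and 33.0 ± 14.9 CPM in secretory cells. ISC-like and TA-like cells did not differ beyond this spread. Slc2a5, the fructose transporter GLUT5, was at 56.5, 47.8 and 44.6 CPM in enterocyte-like cells of replicates I to III, against 10.8 ± 1.18 in early enterocyte-like cells and 0.982 ± 0.620 in ISC-like cells. Neither was confined to enterocyte-like cells. Over all groups, endocrine-like cells held 105 ± 26.4 CPM of Slc5a1 and 44.3 ± 7.72 of Slc2a5. Goblet/Paneth-like cells held 8.68 ± 3.01 and 10.7 ± 1.96 CPM, and enterocyte-like cells 420 ± 44.7 and 67.7 ± 14.1. Slc11a2, the importer of ferrous iron DMT1, was at 127 ± 27.7 CPM in enterocyte-like and 28.3 ± 13.6 in early enterocyte-like cells, a ratio of 4.47. Slc6a20a, a sodium-coupled importer of proline and related imino acids, had 75.8 ± 27.9 and 17.6 ± 8.09 CPM in these classes. Slc9a3, the sodium/proton exchanger NHE3, reached 58.4 ± 26.2 CPM in enterocyte-like cells and 0.647 ± 0.5996 CPM in secretory cells. Slc26a3 and Slc26a6, chloride/bicarbonate exchangers, reached 179 ± 83.0 and 71.1 ± 18.2 CPM in enterocyte-like cells, and of these Slc26a3 was already at 36.7 ± 9.71 CPM in TA-like cells, where Slc26a6 was at 5.23 ± 0.984.

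Secretory cells stood out by Slc12a8, a cation-chloride cotransporter family member, at 239, 263 and 315 CPM in the replicates against 20.9 ± 4.96 CPM in the next class, a ratio of 13.01. Over all groups, goblet/Paneth-like cells held 536 ± 56.6 CPM of it and endocrine-like cells 74.3 ± 26.8. For the sulfate transporter Slc26a2 the order of these subclasses was the opposite, with 46.4 ± 8.09 CPM in goblet/Paneth-like and 93.2 ± 24.8 in endocrine-like cells, and in control secretory cells as a whole it had 57.6 ± 16.9 CPM against 11.4 ± 0.362 in ISC-like cells. Slc30a7, which loads zinc into the Golgi apparatus, was at 52.1 ± 9.39 CPM in secretory and 21.96 ± 4.67 in early enterocyte-like cells. The folate carrier Slc19a1 (64.2 CPM against 27.3 in ISC-like cells) and Slc10a7 (76.0 against 32.9), a Golgi protein of the bile acid carrier family, were also highest there.

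Members highest in crypt classes had small ratios. Slc16a1, the monocarboxylate transporter MCT1, was at 44.4 ± 3.06 CPM in ISC-like, 39.7 ± 6.26 in TA-like and 22.03 ± 1.18 CPM in enterocyte-like cells. Slc20a2, a phosphate importer, had 31.5 ± 6.40 CPM in ISC-like cells against 26.2 ± 6.74 in the TA-like class, a difference within their SD. Slc35a3, the UDP-GlcNAc transporter of the Golgi, was at 115 ± 17.1 CPM in ISC-like and 84.4 ± 16.997 CPM in TA-like cells, with secretory cells between them at 103 CPM. Among members highest in TA-like cells, Slc25a13, Slc25a10 and Slc24a5 had the largest ratios to the next class. Slc25a13, an aspartate/glutamate carrier, was at 35.3 ± 5.19 CPM there, and the dicarboxylate carrier Slc25a10 at 38.4 ± 4.60 CPM. Slc24a5, a cation exchanger of organelles, was at 29.6 ± 5.98 CPM. All were within the SD of another class. The single member highest in early enterocyte-like cells, Slc25a46 of the outer mitochondrial membrane, was at 35.5 ± 7.08 CPM there and 34.96 ± 1.94 in enterocyte-like cells.

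**Figure D2:**
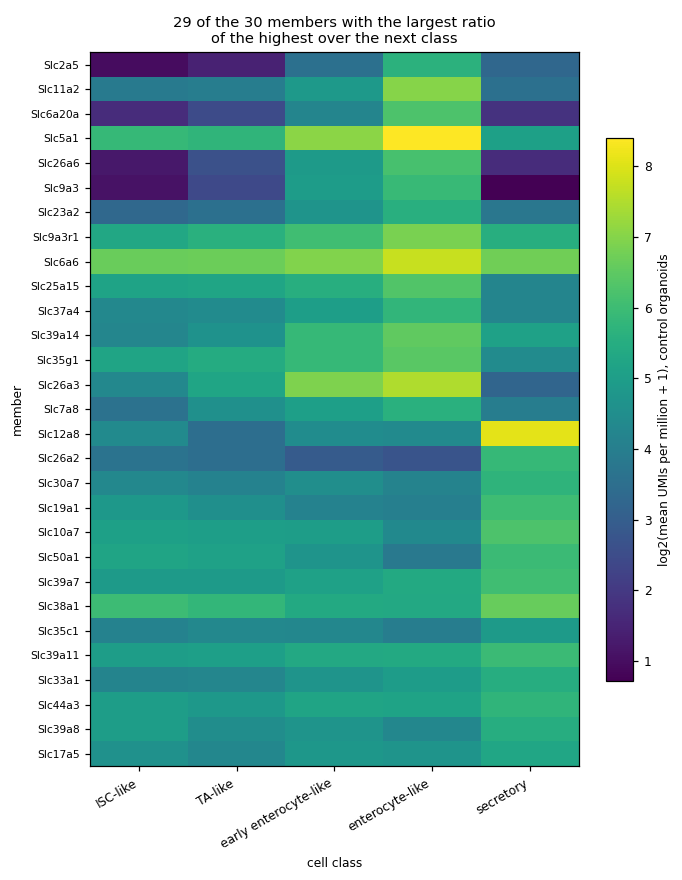
Mean level in the 5 classes of control cells, as log2 of CPM plus 1, for 29 of the 30 members with the largest ratio of the highest over the next class. Rows with a bright enterocyte-like column (Slc2a5, Slc11a2, Slc6a20a, Slc5a1) stand above rows with a bright secretory column (Slc12a8, Slc26a2).

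To see which carriers changed with the 2 cytokines in the absence of Treg cells, cytokine-stimulated organoids were compared with control in each class. Levels in these groups, though not their difference, had chosen the members, so only the 57 members at 20 CPM in both groups were counted. With edgeR's quasi-likelihood test and adjustment over all genes of a class, 39 of the 57 (68.4%) were called in at least 1 class: 20 only upwards, 19 only downwards and none in both directions. Of all genes tested, 40.2% were called in at least 1 class, and of the 5498 genes at 20 CPM or more in both groups 55.7%, which is the nearer background since more abundant genes are called more often. The backgrounds by class are over all genes tested, without a match for abundance. In ISC-like cells 3 members rose and 6 fell (background 8.76% up and 8.23% down). In TA-like cells 11 rose and 12 fell (14.9% and 13.2%), in early enterocyte-like cells 11 and 7 (9.15% and 6.76%), in enterocyte-like cells 12 and 10 (12.7% and 11.3%), and in secretory cells 1 rose and none fell (1.14% and 0.665%), while 10 secretory members had an unadjusted p under 0.05, as had 13.3% of all genes in this class, and DESeq2 called none. The 57 had a median log2 fold change of -0.11 in the ISC-like class and of 0.00 to 0.09 in the others, against 0.00 to 0.01 over all genes. Individual carriers thus moved in both directions, with medians of the set near 0. ISC-like cells belonged mostly to a cluster led by Cenpf and Nusap1 in control (51.7%) and to one led by Olfm4 and Lgr5 after cytokines (58.8%). In TA-like cells, a cluster led by Ccne1 and Ccne2 went from 20.4% to 30.2% of the class and one led by histone genes from 22.98% to 16.7%. Without replicate I 17 members were called, without replicate III 24 and without replicate II 38. The shares of all genes called in these runs are not given here.

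**Figure D3:**
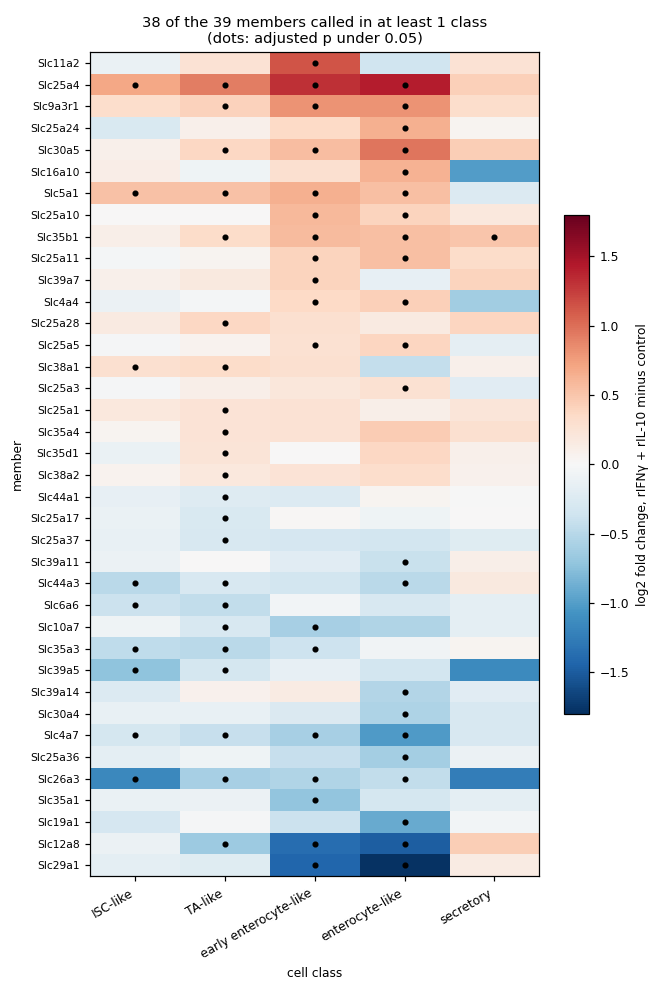
Log2 fold change of cytokine-stimulated over control organoids for 38 of the 39 members called in at least 1 class, by class; red is higher after cytokines, blue lower, and dots mark adjusted p under 0.05. Slc25a4 and Slc5a1 were called higher and Slc4a7 and Slc26a3 lower in all classes but the secretory one.

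Among carriers of sugars, Slc5a1 rose in 4 of 5 classes. In enterocyte-like cells it went from 441, 308 and 266 CPM to 555, 406 and 535 CPM in replicates I to III (log2 fold change 0.54, SE 0.134, adjusted p = 0.00498), and in TA-like cells from 59.1, 54.2 and 44.1 to 83.6, 71.1 and 66.9 CPM (0.53, SE 0.0581, adjusted p = 2.08e-06). The TA-like ranges did not overlap, the enterocyte-like ranges did. Its rise was 0.53 in ISC-like and 0.63 in early enterocyte-like cells, and in secretory cells the value was -0.25 (SE 0.295) without a call. Slc50a1, a sugar carrier of the SWEET family, was not called in any class, with log2 fold changes of 0.02 to 0.37.

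Among carriers of amino acids, Slc38a1 and Slc38a2, sodium-coupled importers of glutamine and other neutral amino acids, rose, and the taurine transporter Slc6a6 fell. Slc38a1 rose by 0.33 on the log2 scale in TA-like cells (58.2, 58.998 and 46.7 CPM in control, 72.7, 68.2 and 60.6 after cytokines) and by 0.29 in ISC-like cells, while it had -0.43 (SE 0.176, adjusted p = 0.0821) in enterocyte-like cells. Slc38a2 was called in TA-like cells alone (0.19, SE 0.0655, adjusted p = 0.0331). In ISC-like cells Slc6a6 had 118, 87.0 and 95.2 CPM in control and 79.0, 74.9 and 66.8 after cytokines (-0.39, SE 0.0810, adjusted p = 0.00109), and in TA-like cells its change was -0.45. All control replicates were above all cytokine replicates in both of these classes.

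Of 7 ion transport members at 20 CPM in both groups, 2 were called higher and 4 lower, beside 55.7% of all genes at this level called in at least 1 class. The scaffold Slc9a3r1 rose in TA-like (0.42), early enterocyte-like (0.81) and enterocyte-like cells (0.82, SE 0.112, adjusted p = 2.03e-05), from 107, 105 and 133 to 226, 175 and 217 CPM in the last of these. Every cytokine replicate there was above every control replicate. Slc4a4, the sodium-bicarbonate cotransporter NBCe1, rose by 0.36 in early enterocyte-like and 0.43 in enterocyte-like cells, where replicates ranged from 89.8 to 195 CPM in control and from 137 to 277 after cytokines.

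The related cotransporter Slc4a7 fell in 4 classes, by 0.31 in ISC-like, 0.42 in TA-like, 0.60 in early enterocyte-like and 1.02 on the log2 scale in enterocyte-like cells (SE 0.179, adjusted p = 0.000288). In enterocyte-like cells it went from 122, 91.7 and 98.4 CPM to 46.7, 67.8 and 42.6 CPM, without overlap. Slc26a3, known as DRA, also fell in 4 classes, most in ISC-like cells, from 21.4, 18.3 and 17.04 to 6.66, 9.86 and 6.68 CPM (-1.17, SE 0.191, adjusted p = 6.85e-05). In enterocyte-like cells, where it is most abundant, its control replicates were far apart (268, 103 and 165 CPM against 158, 120 and 105 after cytokines), 2 of 3 replicates went down and the change was -0.44. Slc24a5 was not called.

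Slc12a8 moved differently over all cells and within classes. Over all cells it went from 24.97, 22.8 and 28.8 CPM in control to 52.1, 42.8 and 39.8 CPM after cytokines. Within enterocyte-like cells it fell from 24.7, 22.2 and 13.6 to 5.53, 11.8 and 4.45 CPM (log2 fold change -1.49, SE 0.313, adjusted p = 0.00143), and it fell by 1.37 in early enterocyte-like and 0.66 in TA-like cells. In secretory cells it was at 272 ± 38.97 CPM in control and 359 ± 39.5 CPM after cytokines (0.44, SE 0.173, adjusted p = 0.267), so the class that holds most of it showed no called change. Goblet/Paneth-like cells, its richest source, were 20% of the secretory control cells and 37.6% of those after cytokines. The 8 goblet markers together had 781, 246 and 266 CPM in early enterocyte-like control cells and 77.0, 121 and 87.5 after cytokines. In enterocyte-like cells they had 166, 165 and 176 CPM in control and 642, 142 and 85.7 after cytokines. The part of this marker signal in the result was not tested.

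Of 8 zinc carriers at 20 CPM in both groups, 2 were called higher and 4 lower, beside the same 55.7% of genes. Slc30a5, which moves zinc into the secretory pathway, rose in 3 classes, most in enterocyte-like cells, from 39.7, 30.0 and 21.7 to 86.4, 44.8 and 50.8 CPM (0.96, SE 0.173, adjusted p = 0.000370), with all cytokine replicates above the control ones. Slc39a7, which releases zinc from the endoplasmic reticulum and Golgi, rose in early enterocyte-like cells (0.41, SE 0.140, adjusted p = 0.0493). Slc39a5, an importer of the basolateral membrane, fell in ISC-like (-0.72, SE 0.134, adjusted p = 0.000335) and TA-like cells (-0.32). In enterocyte-like cells Slc39a14, an importer of zinc and iron, fell from 101, 89.5 and 86.0 to 54.2, 83.9 and 60.3 CPM (-0.53), Slc30a4 had -0.56 and Slc39a11 -0.39, all called. Slc30a9 and Slc39a1 were not called. In enterocyte-like cells, Slc30a5 and Slc30a4, both of which load zinc into vesicles, thus went in opposite directions.

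The metallothioneins Mt1 and Mt2, zinc-binding proteins, belong to a list of 54 partners, pumps and regulators of epithelial transport. The list also holds the member Slc9a3r1, which is counted again among its genes that rose in TA-like, early enterocyte-like and enterocyte-like cells. Mt1 and Mt2 fell in all 5 classes, in enterocyte-like cells from 14420 to 5992 CPM for Mt1 (log2 fold change -1.31, SE 0.119) and from 2524 to 1193 CPM for Mt2 (-1.14, SE 0.119). Of the list, 2 genes rose and 15 fell of 43 tested in ISC-like, 11 and 20 of 48 in TA-like, 8 and 6 of 44 in early enterocyte-like, 10 and 9 of 44 in enterocyte-like and 0 and 4 of 43 in secretory cells. Over all genes the shares called higher and lower in these classes were 8.76% and 8.23%, 14.9% and 13.2%, 9.15% and 6.76%, 12.7% and 11.3%, and 1.14% and 0.665%. Heph, the ferroxidase of basolateral iron export, rose in enterocyte-like cells (65.1 to 89.3 CPM). Cftr, a chloride channel, fell in 4 classes, in secretory cells from 62.1 to 14.5 CPM (-2.03, SE 0.274, adjusted p = 0.000371). In control its level was lowest in this class and highest in ISC-like cells, at 214 CPM. Within the secretory class, goblet/Paneth-like cells went from 20% to 37.6%, a subcluster with Pou2f3 and Avil among its leading genes from 14.4% to 4.26% and one with Cenpf and Nusap1 from 17.8% to 9.302%. The 9 ISC markers together went from 1547, 1142 and 659 CPM to 467, 929 and 681 CPM in this class. The part of these shifts in the secretory results was not tested.

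For iron, Slc11a2 was called in early enterocyte-like cells only, with 22.2, 43.9 and 18.8 CPM in control and 65.5, 80.1 and 27.5 CPM after cytokines (1.14, SE 0.312, adjusted p = 0.0136). All 3 replicates went up, yet the ranges overlapped. In enterocyte-like cells, where its level is highest, the value was -0.36 (SE 0.176, adjusted p = 0.147). The copper importer Slc31a1 was not called (45.3 ± 0.663 CPM in control and 51.3 ± 7.53 after cytokines over all cells).

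Of 16 members of the mitochondrial carrier family Slc25 at 20 CPM in both groups, 8 were called higher and 3 lower in at least 1 class. The 3 include the peroxisomal Slc25a17. Of all genes at this level, 55.7% were called in either direction. The other 5 of the family were not called (Slc25a13, Slc25a15, Slc25a39, Slc25a46 and Slc25a51). The largest log2 fold change upwards of the 57 was that of Slc25a4, the ADP/ATP carrier ANT1. It rose by 0.69 in ISC-like, 0.92 in TA-like, 1.32 in early enterocyte-like and 1.42 in enterocyte-like cells (SE 0.303, adjusted p = 0.00163), and had 0.43 (SE 0.173, adjusted p = 0.279) in secretory cells. In TA-like cells its replicates went from 48.2, 60.0 and 49.1 to 104, 82.2 and 106 CPM, and in enterocyte-like cells from 22.8, 42.8 and 19.8 to 92.9, 50.6 and 79.4 CPM, without overlap in either class. Replicate II had both the highest control and the lowest cytokine level in these classes.

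The isoform Slc25a5, ANT2, which is an order of magnitude more abundant, rose by 0.27 in early enterocyte-like and 0.39 in enterocyte-like cells (SE 0.0934, adjusted p = 0.00370), from 881, 1138 and 1037 to 1375, 1240 and 1456 CPM. Slc25a3 rose in enterocyte-like cells (0.27, upwards in 2 of 3 replicates). Of the metabolite carriers, Slc25a10 for dicarboxylates rose by 0.59 in early enterocyte-like and 0.40 in enterocyte-like cells, Slc25a11 for oxoglutarate by 0.40 and 0.54 (the latter upwards in 2 of 3 replicates), and Slc25a1 for citrate by 0.25 in TA-like cells. Slc25a24, a calcium-regulated ATP-Mg/phosphate carrier, rose in enterocyte-like cells from 100, 66.1 and 69.9 to 151, 111 and 113 CPM (0.64, SE 0.114, adjusted p = 0.000337), with all cytokine replicates above the control ones. The mitochondrial iron importer Slc25a28 rose in TA-like cells (0.37, SE 0.0556, adjusted p = 5.99e-05).

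Its paralog Slc25a37, the other mitoferrin, fell in the same TA-like cells (-0.29, SE 0.0848, adjusted p = 0.0144). Slc25a36, a pyrimidine nucleotide carrier, fell in enterocyte-like cells from 82.7, 61.7 and 55.7 to 45.97, 45.7 and 41.9 CPM (-0.62, SE 0.129, adjusted p = 0.00129), without overlap, and the peroxisomal Slc25a17 fell in TA-like cells (-0.27).

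The Slc35 family includes nucleotide sugar carriers, which supply the Golgi apparatus and endoplasmic reticulum for glycosylation. It was grouped here by family number, not by what each member carries. Of its 8 members at 20 CPM in both groups, 3 were called higher and 2 lower, near the 55.7% of all genes at this level. Slc35b1, which brings ATP into the endoplasmic reticulum, was the sole call in secretory cells among the 57 members at 20 CPM in both groups. It went from 66.5, 84.1 and 78.1 to 99.5, 102 and 110 CPM (0.50, SE 0.117, adjusted p = 0.0359), without overlap. It rose by 0.33 in TA-like, 0.56 in early enterocyte-like and 0.55 in enterocyte-like cells as well. The secretory call was lost without any 1 of the replicates. Slc35a4 and Slc35d1 rose in TA-like cells, both by 0.24. Slc35a3 fell in TA-like cells from 103, 81.0 and 69.3 to 63.3, 61.8 and 48.4 CPM (-0.49, SE 0.0654, adjusted p = 1.87e-05), and in ISC-like (-0.46) and early enterocyte-like cells (-0.38). The CMP-sialic acid transporter Slc35a1 fell in early enterocyte-like cells (-0.72, SE 0.190, adjusted p = 0.0110), where its control replicates of 31.5, 27.2 and 42.7 CPM were above the 17.4, 21.8 and 17.005 CPM after cytokines.

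Slc29a1, the equilibrative nucleoside transporter ENT1, had the most negative value of the 57. It fell in enterocyte-like cells from 5.61, 11.1 and 10.5 CPM (15, 20 and 17 UMIs) to 1.53, 4.02 and 2.54 CPM (8, 14 and 4 UMIs), a log2 fold change of -1.78 (SE 0.355, adjusted p = 0.000918), and by 1.42 in early enterocyte-like cells. It was at 43.6, 57.1 and 44.1 CPM in ISC-like control cells and 32.9, 53.1 and 37.6 after cytokines, with no call. The 9 ISC markers together had 122, 63.9 and 79.9 CPM in enterocyte-like control cells and 37.6, 69.8 and 35.6 after cytokines. In early enterocyte-like cells these markers went from 363, 271 and 262 CPM to 61.1, 214 and 69.6 CPM, lower in all 3 replicates. Their part in the result was not tested. The folate carrier Slc19a1 fell in enterocyte-like cells (11.6, 15.6 and 19.2 to 5.91, 11.2 and 6.99 CPM, -0.91, SE 0.265, adjusted p = 0.0149).

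Of the remaining members, the choline transporter Slc44a1 fell in TA-like cells (-0.23) and Slc44a3 in ISC-like (-0.49), TA-like (-0.28) and enterocyte-like cells (-0.48). Slc10a7 fell in TA-like (-0.28) and early enterocyte-like cells (-0.60, SE 0.202, adjusted p = 0.0451). Slc16a10, a carrier of aromatic amino acids of the basolateral membrane, rose in enterocyte-like cells from 33.3, 17.8 and 19.2 to 52.1, 30.5 and 27.3 CPM (0.63, SE 0.160, adjusted p = 0.00616). Slc16a1 was not called, with 38.7 ± 5.27 CPM in control and 37.3 ± 4.61 CPM after cytokines over all cells. The phosphate and sugar phosphate carriers Slc20a2, Slc37a1 and Slc37a4 were not called either, with log2 fold changes between -0.34 and 0.18 over the classes. Nor were Slc35b2, Slc35b3 and Slc35g1 of the Slc35 family.

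The 21 members that reached 20 CPM in 1 group alone are given as levels over all cells without a test, since the threshold itself sets them apart. In such sums, a change in the number of cells of a class and a change of RNA per cell cannot be told apart. For the 9 members above the limit in control alone, a higher level in control follows from this choice. Slc27a2, a very long-chain acyl-CoA synthetase and fatty acid transporter, was at 42.2, 25.7 and 31.2 CPM in control and 19.1, 15.4 and 15.1 after cytokines. Slc39a8, an importer of zinc and manganese, was at 35.5, 18.4 and 20.6 against 14.1, 13.03 and 10.9 CPM. Slc17a4, Slc25a32 (a mitochondrial carrier for folate and FAD), Slc25a16 and Slc16a6 had 0.712 to 0.813 times the control level, and the ranges of Slc17a5, the lysosomal sialic acid exporter, and Slc7a8, an exchanger of neutral amino acids, overlapped.

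For the 12 members above the limit after cytokines alone, a higher level after cytokines likewise follows from the choice. Slc2a5 was at 7.11, 4.76 and 6.98 CPM in control and 47.9, 11.2 and 22.9 CPM after cytokines. Slc30a7 was at 22.1, 18.2 and 16.8 against 42.0, 24.6 and 22.3 CPM, and Slc26a2 and the Golgi protein Slc35c2 had 1.74 and 1.26 times the control level. Slc6a20a (15.4, 7.13 and 9.22 against 47.4, 11.3 and 20.9 CPM) and Slc9a3 (12.96, 6.36 and 9.73 against 43.4, 12.2 and 21.01 CPM) were highest in replicate I, which also had the largest share of enterocyte-like cells after cytokines (21.97%). Slc26a6, Slc23a2, Slc35c1, Slc33a1 and Slc4a2 had 1.09 to 1.95 times the control level, with overlap. In control, Slc2a5, Slc6a20a, Slc9a3 and Slc26a6 had their highest class level in enterocyte-like cells.

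Whether the cytokine effect differed between enterocyte-like and TA-like cells was tested as an interaction over both classes in 1 fit. The difference was called for 12 of the 57 members, 6 higher and 6 lower in enterocyte-like cells. Of all genes tested, 3.78% and 5.24% were called in these directions. These genes were not matched to the members for abundance, so no excess of members can be read from the counts. For Slc16a10, Slc25a24 and Slc4a4 the cytokine effect was above 0 in enterocyte-like cells (0.63, 0.64 and 0.43) and near 0 in TA-like cells (-0.08, 0.09 and -0.04), with differences of 0.73, 0.54 and 0.47. Slc30a5 and Slc9a3r1 rose in both classes, and more in enterocyte-like cells (differences of 0.60 and 0.40). Of the classes in this test, Slc35a3 was called lower in TA-like cells alone (difference 0.43). In the other direction, Slc29a1 (-1.56), Slc19a1 (-0.88), Slc39a14 (-0.61), Slc25a36 (-0.56) and Slc39a11 (-0.40) had a lower effect in enterocyte-like cells. Slc38a1 had effects of opposite sign, 0.33 in TA-like and -0.43 in enterocyte-like cells, a difference of -0.77 (SE 0.178, adjusted p = 0.00470). Without replicate III 1 of these calls was made and without replicate I 3, and 17 without replicate II.

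**Figure D4:**
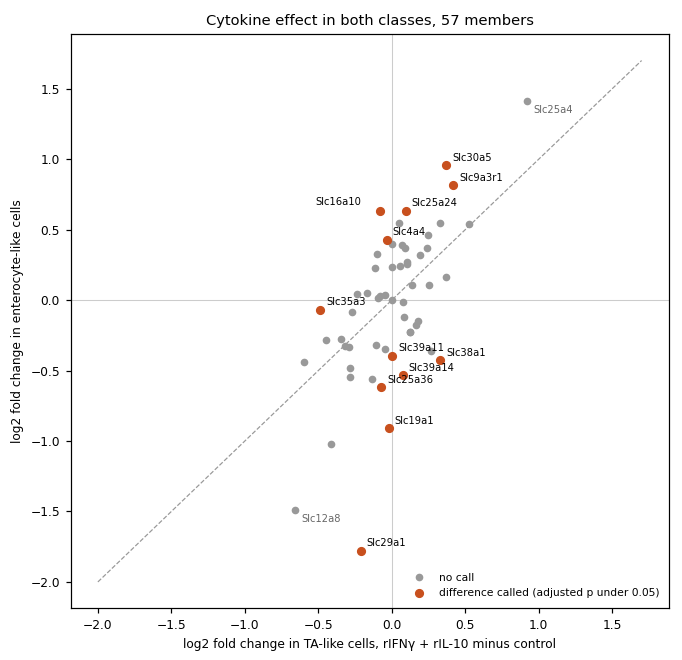
Cytokine effect (log2 fold change over control) in TA-like cells on the horizontal and in enterocyte-like cells on the vertical axis, 1 point for each of the 57 members; the dashed line marks equal effects. Orange points are the 12 members whose difference had an adjusted p under 0.05, such as Slc30a5 and Slc16a10 above and Slc29a1 and Slc38a1 below the line.

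In Treg co-cultures without antibody, compared with control, 2 of 57 members were called, both higher in TA-like cells. Of all genes tested, not matched for abundance, 0.329% were called higher in this class and 0.478% were called in at least 1 class. Slc5a1 was at 76.6, 64.3 and 54.3 CPM with Treg cells against 59.1, 54.2 and 44.1 CPM in control (log2 fold change 0.30, SE 0.0572, adjusted p = 0.0169). It was higher in each of 3 replicates, by 0.36, 0.25 and 0.31, although the ranges overlapped. Slc25a28 was at 54.8, 53.6 and 50.4 CPM against 45.6, 44.4 and 42.5 CPM (0.26, SE 0.0543, adjusted p = 0.0322), without overlap. DESeq2 called 1 of the pair, and neither passed when any replicate was left out. Without the filter on low counts 3 members were called, these and Slc25a4 in TA-like cells (0.32, SE 0.0636, adjusted p = 0.000114). In that run Slc5a1 was also called in enterocyte-like cells (0.38, adjusted p = 0.0356). The share of all genes called in it is not given here, so no excess of members can be read from these added calls. The control organoids enter this comparison and that of the cytokines, where the same members had 0.53 and 0.37 in TA-like cells.

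None of the 78 members was called when Treg co-culture was compared with co-culture and an antibody, a comparison of groups that the choice of members did not use. This held for both antibodies (background 0.797% of genes), for anti-IFNγ (0.592%) and for anti-IL-10R (0%). DESeq2 called none either, while at an unadjusted p under 0.05 the edgeR test gave 7, 10, 10, 7 and 4 members in ISC-like, TA-like, early enterocyte-like, enterocyte-like and secretory cells for both antibodies, 6, 8, 8, 10 and 5 for anti-IFNγ, and 4, 1, 1, 1 and 2 for anti-IL-10R. Between 75 and 78 members were tested in a class. The shares of all genes at this unadjusted p were 8.26%, 9.998%, 6.83%, 7.06% and 3.81% for both antibodies, 7.34%, 8.77%, 5.79%, 8.83% and 3.95% for anti-IFNγ, and 3.77%, 2.93%, 2.61%, 2.46% and 3.03% for anti-IL-10R. Slc30a4 in TA-like cells came nearest for both antibodies (20.8 ± 5.82 CPM with Treg cells alone, 26.4 ± 5.31 with both, -0.36, SE 0.0845, adjusted p = 0.0705). With the filter on low counts removed, Slc30a4, Slc27a2 and Slc35b1 were called in TA-like cells for both antibodies, and Slc30a4 in TA-like and Slc35b1 in early enterocyte-like and enterocyte-like cells for anti-IFNγ. The backgrounds above belong to the fits with the filter, and no share of all genes is given for those without it. Of the transport partners, Mt1 and Mt2 were called lower with Treg cells than with both antibodies in ISC-like cells (-0.55 and -0.61) and TA-like cells (-0.65 and -0.66).

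Levels in the 6 groups show where the called members stood with antibodies. Slc25a28 in TA-like cells was at 44.2 ± 1.58 CPM in control, 53.0 ± 2.28 with Treg cells, 45.9 ± 2.59 with anti-IFNγ, 53.3 ± 2.37 with anti-IL-10R, 46.8 ± 3.82 with both and 55.6 ± 5.70 CPM after cytokines. Slc5a1 in the same class was at 52.4 ± 7.67, 65.1 ± 11.2, 58.6 ± 11.2, 70.7 ± 7.54, 62.9 ± 11.3 and 73.9 ± 8.70 CPM in this order. Neither had a called difference between Treg cells with and without antibody. Slc25a4 in TA-like cells was at 58.0 to 66.0 CPM in the 4 co-cultures, against 52.4 ± 6.58 in control and 97.6 ± 13.4 after cytokines. Slc35b1 in enterocyte-like cells was at 133 ± 7.68 CPM with Treg cells and 102 ± 4.42 with anti-IFNγ (0.43, SE 0.126, adjusted p = 0.309), with every replicate higher without the antibody. Slc29a1 in enterocyte-like cells was at 4.77 ± 0.660 CPM with Treg cells and 10.2 ± 3.44 with anti-IFNγ (-1.02, SE 0.313, adjusted p = 0.327), and Slc4a7 at 86.2 ± 23.8 and 103 ± 11.9 CPM.

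**Figure D5:**
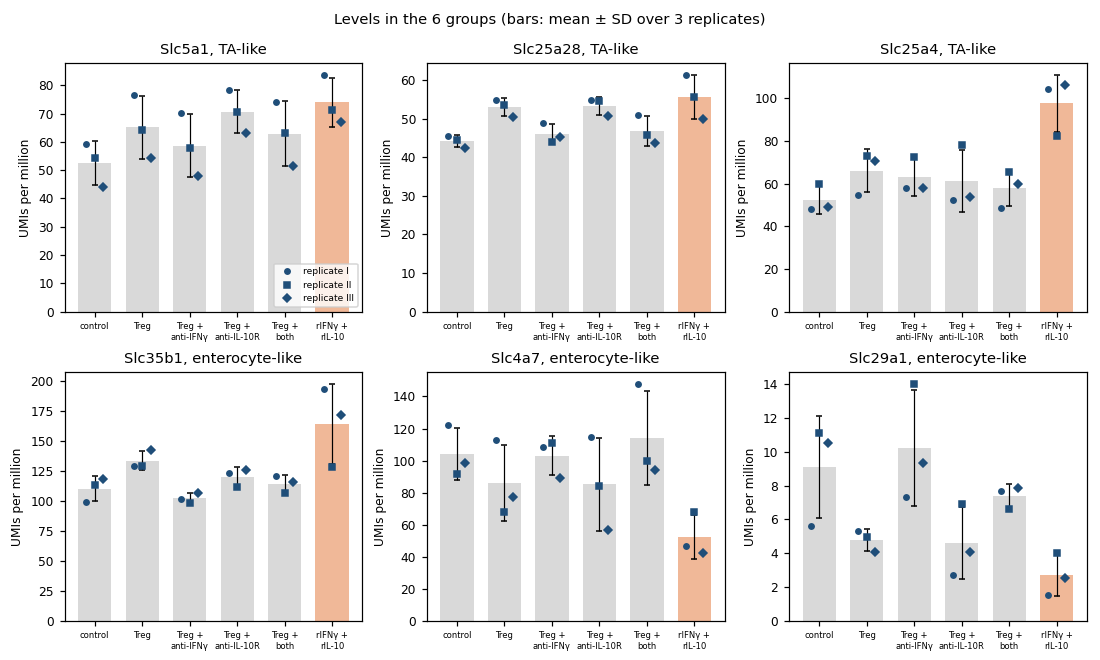
Levels of 6 members in the 6 groups, in CPM within 1 class; bars are means, error bars the SD over 3 replicates, points the replicates, and the orange bar the cytokine group. In TA-like cells Slc25a28 is at 53.0 with Treg cells and 44.2 in control, and Slc25a4 at 97.6 after cytokines.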

How the data were processed

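Single-cell 3′ RNA (10x Genomics) with hashtag antibodies was measured in 6 groups pooled per library. Per the labels, the authors aligned reads with Cell Ranger 7.0.0 to mm10 (GRCm38) and deposited UMI counts per gene and barcode, and hashtag counts, which are raw counts with no normalization. Of the deposited libraries, B1 and B2 (replicate I), B3 and B4 (II) and B5 (III) were used, and B6 was left out as in the study. The deposited Seurat objects were not used here.

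Hashtags were assigned with HTODemux (Seurat 5.3.0, quantile 0.99), and singlets with 10000 to 90000 UMIs and mitochondrial genes of at most 8.5% chose the members. For classes and tests, cells also had 3000 to 10000 genes. Doublets across groups were removed by hashtag. Doublets within a group were estimated at 1.64% to 6.97% of singlets, and Scrublet, which ranked hashtag doublets poorly (area under the curve 0.475 to 0.687), served as an alternative only. Control cells were clustered without genes starting with Slc and interferon or antigen presentation genes (scanpy 1.11.5, 3000 variable genes, 30 principal components, 20 neighbors, leidenalg 0.10.2, resolution 1), clusters were named by fixed markers, and cells of all groups were assigned to a class by rank correlation. With 1 replicate left out of the training, 78.5% to 87.0% of its control cells came to their own class.

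UMI counts were summed per class, group and replicate (at least 10 cells) and tested with edgeR 4.0.16 (quasi-likelihood, TMM, filterByExpr, replicate as a block, all 6 groups in 1 fit per class) in R 4.3.3. Adjusted p-values (Benjamini-Hochberg) run over all genes of a class and comparison, with a threshold of 0.05. CPM are relative to all UMIs of the same sum. The replicate block follows from the labels, since each library holds all groups of 1 replicate. The mean correlation of deviations from the group means was 0.161 to 0.482 within replicates and -0.281 to -0.148 between them. Such deviations cancel within each group by construction, which pushes the values between replicates down, so their sign is no evidence for the block. The fit was tested on simulated data. Alternatives were no block, DESeq2 1.42.0, its size factors in edgeR, no low-count filter, Scrublet, cells by the rule alone, equal numbers of cells and leaving out each replicate.

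Named were the top 2 members per role in control, up to 12 called members each way after cytokines by fold change with the same sign in all replicates, up to 8 each way in other comparisons, up to 3 per class by ratio to the next class, those at the threshold, those above it in 1 group, and those whose promoters are printed. Other called members are named to account for the set. The members, roles and lists were chosen with earlier results of these data known. Results for a few genes, members among them, are not reported here, and the figures leave them out; counts over the set include them.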

Additional observations from a re-analysis of the deposited data

Results flagged for a closer look

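The effect of rIFNγ and rIL-10 differed between enterocyte-like and TA-like cells for 12 members by the interaction test with an adjusted p under 0.05 (edgeR), and the differences of the log2 fold changes (enterocyte-like minus TA-like) are given here. It was -1.56 for the nucleoside transporter Slc29a1 (SE 0.341), -0.88 for the folate carrier Slc19a1 (SE 0.252), -0.77 for the amino acid transporter Slc38a1 (SE 0.178), -0.61 for the zinc and iron importer Slc39a14, -0.56 for the mitochondrial carrier Slc25a36 and -0.40 for Slc39a11. It was 0.40 for the scaffold Slc9a3r1, 0.43 for Slc35a3, 0.47 for the bicarbonate cotransporter Slc4a4, 0.54 for Slc25a24, 0.60 for the zinc carrier Slc30a5 and 0.73 for the aromatic amino acid carrier Slc16a10 (SE 0.163). Of all genes in this test, 3.78% were called higher and 5.24% lower in enterocyte-like cells, without a match for abundance. Most of the 12 calls were lost without the replicate block, without replicate I and without replicate III. Groups of 3 replicates were not examined for outlying samples.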

How the results depend on the processing

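Members called after cytokines against control numbered 39 in at least 1 class and 17 to 38 with 1 replicate left out. Without the replicate block, which sets the pairing of groups within a library aside, they numbered 12. By class, in the order ISC-like, TA-like, early enterocyte-like, enterocyte-like and secretory, the 9, 23, 18, 22 and 1 members called became 4, 4, 3, 8 and 0 without the block, and 5 to 10, 13 to 22, 4 to 17, 6 to 27 and 0 to 0 with 1 replicate left out. With equal numbers of cells 5 were called in early enterocyte-like cells. The secretory count was 0 with DESeq2, with Scrublet doublets removed and with equal numbers of cells, and 3 without the filter on low counts. The 12 differences between enterocyte-like and TA-like cells became 0 without the block, 4 with equal numbers of cells and 1 to 17 with 1 replicate left out. The 2 members called between Treg cells and control became 0 without the block, 1 with DESeq2, 0 with equal numbers of cells, 0 to 0 with 1 replicate left out, and 3 without the filter on low counts. Without the filter on low counts, 3 members were called against both antibodies and 2 against anti-IFNγ, where none had been. A limit of 30 CPM left 43 members. No named member changed sign under any alternative run; of 38 values, 28 lost their call without the block, 27 without replicate I, 23 without replicate III, 21 with equal numbers of cells and 8 or fewer under each of the others. The smallest sums held 18 secretory and 19 early enterocyte-like cells. The cause of the other changes was not tested, and the shares of all genes called in the alternative runs are not given here.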
